A study of Mus musculus with 8 samples.

Results

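The genes described here encode 10 proteins of vesicle fusion, the SNAREs *Vamp2*, *Vamp3*, *Vamp7*, *Stx3*, *Stx4a*, *Snap23*, *Snap25* and *Snap29* and the Rab GTPases *Rab3a* and *Rab27a*. They were taken by symbol from a table of 23427 genes, in which 9 of the 10 had a row, and *Vamp7* was not analysed here. Of these 9 genes, 8 passed the filter on low values and were tested among 12208 genes, and *Rab27a* did not pass it. The table holds the mRNA levels of mouse primary OPCs (oligodendrocyte precursor cells, which mature into oligodendrocytes, OLs) at 4 times of differentiation (Day 0 to Day 3), with 2 independent replicates per day and 8 libraries in all. Every library came from cells of WT C57BL/6J mice, isolated out of cortical tissue of 3 pups (postnatal day 7) on dishes coated with an antibody against PDGFRα. Differentiation was started by taking away the growth factor PDGF-AA and adding the thyroid hormone T3 (40 ng/mL), so the later days differ from Day 0 in time in culture as well as in medium, which cannot be told apart. Because an FPKM (fragments mapped to a gene, divided by its length in kilobases and by the depth of the library) is a share of all mRNA, a change in the cells that carry a transcript and a change in its amount per cell cannot be told apart.

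Membrane fusion is driven by SNARE proteins, which zip together into a bundle of helices across 2 membranes. A vesicle brings an R-SNARE such as VAMP2 or VAMP3, and the target membrane brings a syntaxin (a Qa-SNARE) and a protein of the SNAP25 family, which gives both the Qb and the Qc helix. Rab GTPases act before this step and bring a vesicle to its target through the effectors they bind, and RAB3A and RAB27A are known for regulated secretion. OLs add large amounts of membrane and of membrane protein to their surface as they mature, and VAMP2 and VAMP3 are known to take part in that delivery.

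The libraries held an estimated 960000 to 1530000 fragments, which the steps between low FPKM values gave. The labelled cell type was visible in its markers. The summed FPKM of 4 OPC markers went from 934 to 954 on Day 0 to 112 to 204 on Day 3, all 4 being lower by limma's test, and that of 6 OL markers went from 787 to 1074 to between 18963 and 26846, with all 6 higher. The sum of 5 astrocyte markers differed between the replicates on each day, from 30.3 and 204 on Day 0 to 61.6 and 775 on Day 3 (replicate 1 and replicate 2), and limma called 0 of these 5 genes between Day 0 and Day 3 (0 at an unadjusted p under 0.05). With the replicate block it called 2 of them higher, *Gfap* (log2 fold change 1.76, adjusted p = 1.26e-04) and *Aqp4* (1.62, 7.35e-04, named after its values were seen). Both were higher on Day 3 than on Day 0 within each replicate number, and the part of astrocyte RNA in the changes given here was not tested. The sums of microglial, endothelial and mural cell markers stayed at or under 3.31 in all 8 libraries.

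All 9 genes had a row with signal, but their levels spanned a wide range. *Vamp3* had the highest mean over the 8 libraries, 108.0 FPKM, above 97.5% of the rows of the table. By that mean *Vamp2* followed with 84.8 FPKM and *Rab3a* with 70.3 FPKM. The ranges of the libraries overlapped here too, and on Day 1 *Vamp3* had the lowest mean (87.7 FPKM, beside 91.6 for *Vamp2* and 90.2 for *Rab3a*). *Stx4a* and *Snap29* (both 24.2 FPKM) and *Snap23* (22.7 FPKM) formed a middle tier, in which the ranges of the libraries overlapped and no order could be read. *Stx3* (3.69 FPKM) and *Snap25* (2.31 FPKM) were low and also overlapped each other, and *Rab27a* was at 0.230 FPKM. The plot of the levels by day shows each library.

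**Figure D1:**
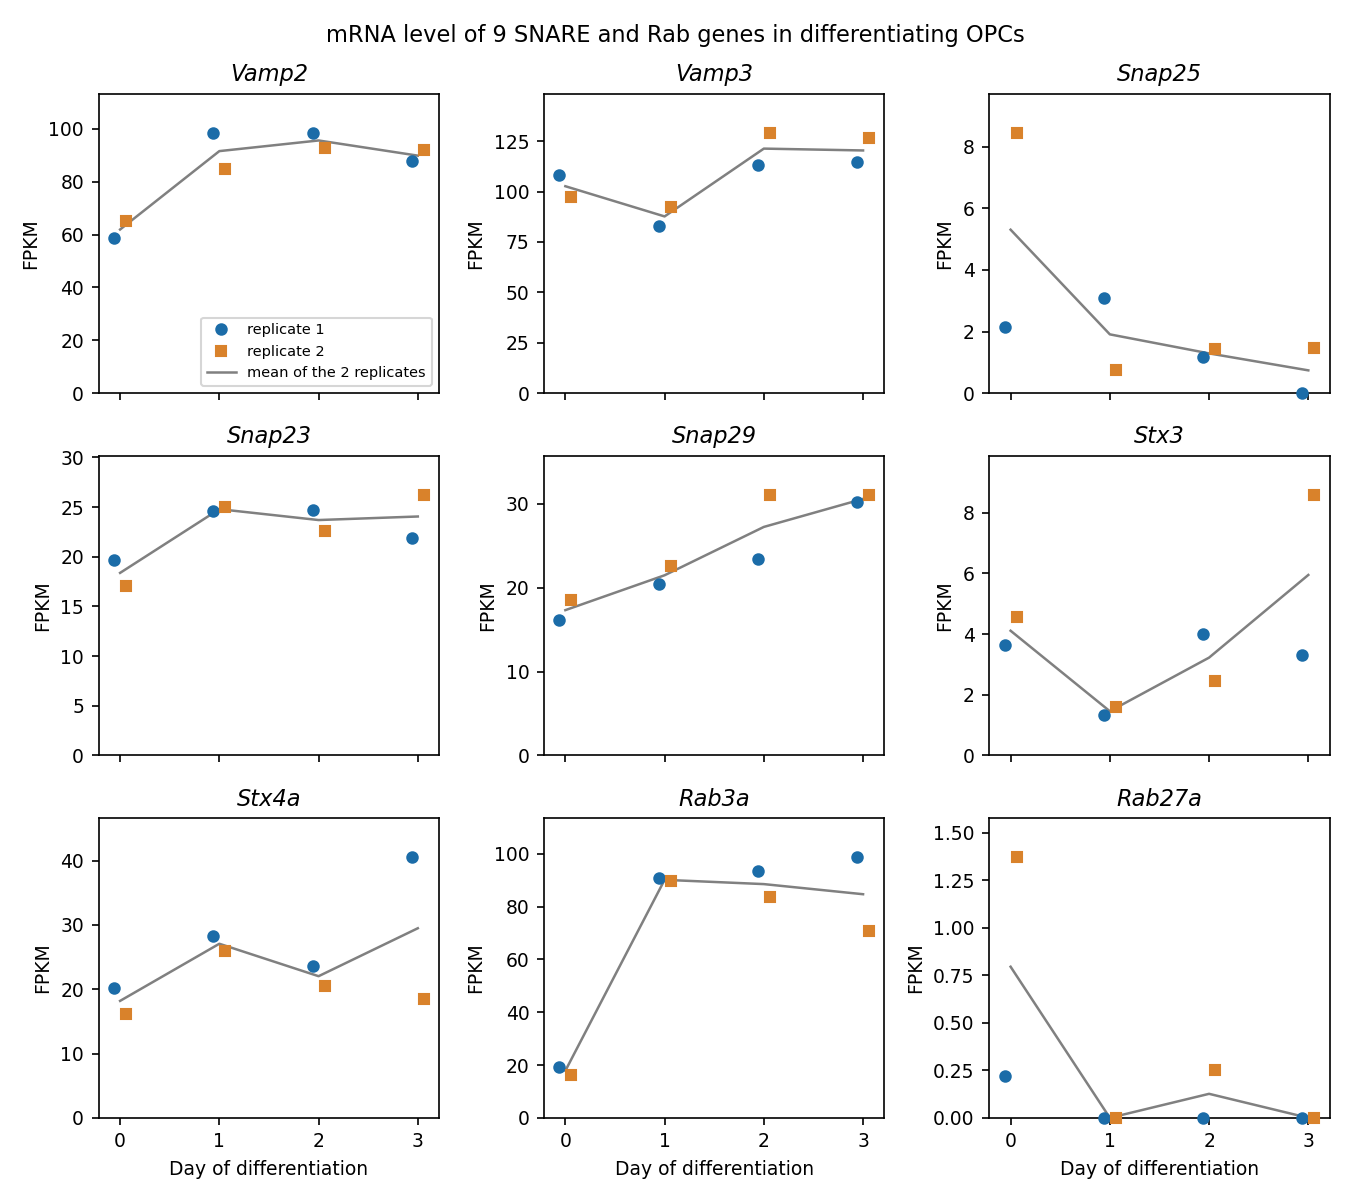
FPKM (y axis, from 0, a separate scale for each gene) of 9 genes on Day 0 to Day 3 (x axis), with a circle for replicate 1, a square for replicate 2 and a line through the mean of both. *Rab3a* went from 16.3 and 19.4 FPKM on Day 0 to between 70.7 and 98.7 FPKM in the 6 later libraries, *Snap29* was higher on each later day by its mean, and *Snap25* and *Rab27a* were highest in replicate 2 of Day 0.

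From Day 0 to Day 3, *Rab3a*, *Snap29* and *Vamp2* rose, and limma called 0 of the 8 tested genes lower (1, *Snap25*, at an unadjusted p under 0.05, which was called with the replicate block). The 3 that rose are 37.5% of those tested, where 12% of all 12208 genes were called higher (1460 genes) and 26.3% were called lower (3207 genes). A gene was called where limma's adjusted p on log2(FPKM + 1), after Benjamini and Hochberg, was under 0.05. The median log2 fold change was 0.45 over the 8 genes and -0.31 over all genes. Because that median gene fell, the change of each of the 8 genes from Day 0 to Day 3 is also given relative to it. With the libraries rescaled by their median ratio, the calls over all genes split into 2137 higher and 2042 lower (51.1% higher) in place of 31.3% higher. Under that rescaling 5 of the 8 genes were called higher, *Vamp3* and *Snap23* being added.

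*Rab3a*, a GTPase of synaptic and secretory vesicles, had the largest rise of the 8. Its values were 19.4 and 16.3 FPKM on Day 0, 90.7 and 89.7 FPKM on Day 1, 93.6 and 83.6 FPKM on Day 2 and 98.7 and 70.7 FPKM on Day 3 (replicate 1 and replicate 2). Both Day 0 libraries were far below the other 6, which overlapped between days. The log2 fold change was 2.28 for Day 1 against Day 0 (SE 0.18, limma adjusted p = 7.48e-04), the 43rd highest of all genes tested, and 2.17 for Day 3 against Day 0 (SE 0.18, limma adjusted p = 1.25e-04), which is 2.48 above the median gene. In mean FPKM these were 5.05-fold and 4.75-fold. *Rab3a* was called under all 14 alternative settings, with a log2 fold change from Day 0 to Day 3 between 1.93 and 2.48. The gene lies at chr8:70754679-70758677 (GRCm38, plus strand), and 29 bp of it overlap *Mpv17l2* on the opposite strand.

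*Rab27a*, a GTPase of lysosome-related and secretory organelles, was close to the limit of what these libraries can measure. It was at 0.219 and 1.37 FPKM on Day 0 and at 0.253 FPKM in replicate 2 of Day 2, and was listed at 0 in the other 5 libraries. These values correspond to 1, 5 and 1 fragments, of which only replicate 2 of Day 0 was above the floor of 3 fragments. On Day 3 that floor stood at 0.926 and 1.05 FPKM, so a level under it could not be measured reliably at this depth. The annotation also places 149 exonic bases of the gene over a processed pseudogene, which leaves its few fragments uncertain.

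Of the R-SNAREs, *Vamp2* rose on Day 1 and stayed higher. It was at 58.7 and 65.2 FPKM on Day 0, 98.3 and 84.9 FPKM on Day 1, 98.6 and 92.7 FPKM on Day 2 and 87.7 and 92.1 FPKM on Day 3. Both Day 0 libraries were below all 6 later ones, and the later days overlapped. The log2 fold change was 0.56 for Day 1 against Day 0 (SE 0.13, limma adjusted p = 0.0287) and 0.53 for Day 3 against Day 0 (SE 0.13, limma adjusted p = 0.0143), which is 0.85 above the median gene and 1.45-fold in mean FPKM. The Day 3 call was lost without replicate 1 of Day 0 and without replicate 2 of Day 3 (limma adjusted p up to 0.0949). The Day 1 call was lost when any single library of Day 0 or Day 1 was left out (limma adjusted p up to 0.176) and when only the libraries of those days were fitted (0.0723). Between 173 and 267 fragments stood behind each *Vamp2* value. Summed by day, they gave a Day 3 to Day 0 ratio of 1.46 (exact 95% interval 1.26 to 1.68, counting error only). No annotated gene overlaps *Vamp2* (chr11:69088490-69092384, plus strand), and 0 of its 3861 stretches of 31 nt occur in transcripts of another gene.

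*Vamp3*, the R-SNARE of recycling endosomes, followed another course. It was at 108.2 and 97.1 FPKM on Day 0, 82.9 and 92.4 FPKM on Day 1, 113.3 and 129.3 FPKM on Day 2 and 114.4 and 126.3 FPKM on Day 3. Day 1 was below Day 0 and the last 2 days were above it, without overlap between Day 0 and either. No step passed the test: the change in log2 was -0.23 between Day 0 and Day 1 (limma adjusted p = 0.339), 0.46 from Day 1 to Day 2 (0.101) and 0.23 from Day 0 to Day 3 (SE 0.14, 95% interval -0.08 to 0.54, adjusted p = 0.217). Relative to the median gene the last was 0.54, and with median ratio scaling it was called (limma adjusted p = 0.0271). *Vamp3* lies within *Camta1* on the same strand, with 0 shared exonic bases, and 227 of its 2857 stretches of 31 nt also occur in transcripts of other genes.

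In the SNAP25 family, *Snap29* rose, and *Snap23* and *Snap25* did not pass the test. *Snap29*, the member without a membrane anchor that acts at several internal membranes, was at 16.1 and 18.5 FPKM on Day 0, 20.4 and 22.6 FPKM on Day 1, 23.4 and 31.1 FPKM on Day 2 and 30.2 and 31.02 FPKM on Day 3. Each day lay above the one before it, except that Day 3 overlapped Day 2. Its log2 fold change for Day 3 against Day 0 was 0.79 (SE 0.18, limma adjusted p = 0.0102), 1.10 above the median gene and 1.77-fold in mean FPKM. From Day 0 to Day 1 it was 0.30 (limma adjusted p = 0.347) and from Day 1 to Day 2 it was 0.32 (0.339). Without replicate 1 of Day 0 the Day 3 call was lost (limma adjusted p = 0.0724). The gene has a single annotated transcript of 3447 nt, and its values were 85 and 78 fragments on Day 0 and 113 and 102 on Day 3, a ratio of 1.78 (exact 95% interval 1.44 to 2.19, counting error only). It overlaps *Pi4ka* on the opposite strand over 60 exonic bases, and *Pi4ka* went the other way, from 38.8 and 37.4 FPKM on Day 0 to 25.9 and 20.1 FPKM on Day 3.

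*Snap23*, the widely expressed counterpart of *Snap25* at the plasma membrane, was at 19.6 and 17.1 FPKM on Day 0, 24.6 and 25.0 FPKM on Day 1, 24.7 and 22.6 FPKM on Day 2 and 21.9 and 26.2 FPKM on Day 3. Both Day 0 libraries were below the other 6. The log2 fold change was 0.42 for Day 1 against Day 0 (limma adjusted p = 0.154) and 0.37 for Day 3 against Day 0 (SE 0.17, 95% interval -0.01 to 0.75, adjusted p = 0.116), 0.68 above the median gene. It was called with median ratio scaling (limma adjusted p = 0.0179) and with quantile normalization (0.0276). Transcripts of other genes hold 204 of its 4401 stretches of 31 nt.

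*Snap25*, the SNAP of neuronal synapses, was at 2.15 and 8.46 FPKM on Day 0, 3.08 and 0.738 FPKM on Day 1 and 1.16 and 1.42 FPKM on Day 2. On Day 3 it was listed at 0 in replicate 1 and was at 1.48 FPKM in replicate 2. The values rest on 7 and 22 fragments on Day 0 and on 0 to 8 fragments in each later library, and the Day 0 libraries differed by more than counting error (replicate 2 over replicate 1, 3.93, exact 95% interval 1.62 to 10.9). Day 3 lay below Day 0, and Day 1 overlapped it. Its log2 fold change for Day 3 against Day 0 was -1.80 (SE 0.66, 95% interval -3.31 to -0.29, limma adjusted p = 0.0618). With the replicate block it passed the threshold (limma adjusted p = 0.0473). It did not pass with median ratio scaling (limma adjusted p = 0.0981) or quantile normalization (0.126). The change was -2.59 without replicate 1 of Day 0 and -1.002 without replicate 2 of Day 0. Without replicate 1 of Day 3 it was -1.14, and without replicate 2 of Day 3 it was -2.45. By fragments, Day 3 over Day 0 was 3 against 29, a ratio of 0.139 (exact 95% interval 0.0272 to 0.450, counting error only). Against replicate 1 of Day 0 alone it was 0.321 (0.0535 to 1.41). The interval of 0.0272 to 0.450 leaves out the difference between the Day 0 libraries, where 22 of the 29 fragments came from replicate 2. The summed FPKM of 9 neuron markers was also highest on Day 0: it was 8.33 and 10.1 on Day 0, and between 1.55 and 3.46 in the later libraries. The sum and *Snap25* did not run together in each replicate. In replicate 1 from Day 0 to Day 1, *Snap25* went from 2.15 to 3.08 FPKM and the sum from 8.33 to 3.46. On Day 0 the sum came from *Nefl*, *Nefm* and *Syt1*, apart from 0.428 FPKM of *Stmn2* in replicate 2. Of these 3 neuron markers, the only ones that could be tested, *Nefl* and *Nefm* were called lower on Day 3. *Syt1* was not called (-0.50, limma adjusted p = 0.274). *Rbfox3*, *Slc17a7* and *Stmn2* stayed at or under 0.862 FPKM and were each highest on Day 2 or Day 3. *Slc17a6*, *Gad1* and *Gad2* were at 0 in all 8 libraries. These markers were named after their values were seen. The part of neuronal RNA in the *Snap25* values was not tested.

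Neither of the syntaxins passed the test, and for both a single Day 3 library set the size of the change. *Stx4a*, a syntaxin of the plasma membrane, was at 20.2 and 16.2 FPKM on Day 0, 28.2 and 25.9 FPKM on Day 1, 23.6 and 20.5 FPKM on Day 2 and 40.5 and 18.4 FPKM on Day 3. One Day 3 library was the highest of all 8 and the other lay between those of Day 0, and they differed by more than counting error (60 and 24 fragments, replicate 2 over replicate 1, 0.455, exact 95% interval 0.271 to 0.742). Its log2 fold change for Day 3 against Day 0 was 0.57 (SE 0.32, 95% interval -0.16 to 1.30, limma adjusted p = 0.188), and it was called without replicate 2 of Day 3 (1.12, limma adjusted p = 0.010) and was 0.03 without replicate 1.

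*Stx3*, a syntaxin of apical and other specialised plasma membranes, was at 3.65 and 4.58 FPKM on Day 0, 1.33 and 1.59 FPKM on Day 1, 4.01 and 2.44 FPKM on Day 2 and 3.31 and 8.59 FPKM on Day 3. Day 1 was the lowest day, without overlap with any other, and Day 3 spread around Day 0. The log2 fold change was -1.05 between Day 0 and Day 1 (SE 0.42, limma adjusted p = 0.149), 0.76 from Day 1 to Day 2 (0.318) and 0.34 from Day 0 to Day 3 (95% interval -0.62 to 1.29, adjusted p = 0.551). The last was 0.65 above the median gene, and it turned to -0.24 without replicate 2 of Day 3.

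**Figure D2:**
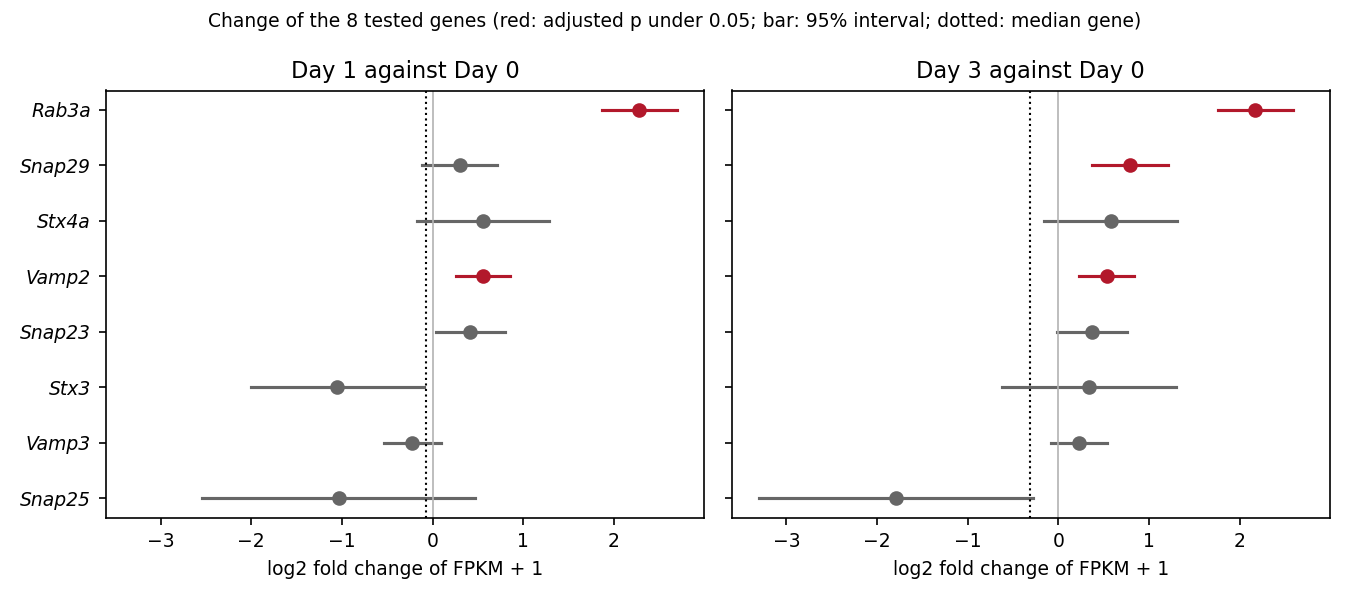
Log2 fold change of FPKM + 1 (x axis) of the 8 tested genes (y axis) for Day 1 against Day 0 (left) and Day 3 against Day 0 (right), with limma's 95% interval as a bar, red where the adjusted p was under 0.05, and the median of all genes as a dotted line. *Rab3a* and *Vamp2* are red in both panels (2.28 and 0.56 on Day 1), *Snap29* only on the right (0.79), and the bar of *Snap25* is the widest.

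Between adjacent days, the 8 genes were called only from Day 0 to Day 1, which was also the step with the most calls among all genes. On Day 1 against Day 0, *Rab3a* and *Vamp2* were called higher, 2 of the 8 genes, and limma called 0 lower (1, *Stx3*, at an unadjusted p under 0.05), where 5.04% of all genes were called higher (615) and 7.56% lower (923). From Day 1 to Day 2 limma called 0 of the 8 (1, *Vamp3*, at an unadjusted p under 0.05), where 3.89% of all genes (475) were called in either direction. From Day 2 to Day 3 it again called 0 of the 8 (0 at an unadjusted p under 0.05), where 0.295% of all genes (36) were called. With the replicate block limma also called 0 of the 8 in both of these steps. In that last step the 8 log2 fold changes lay between -0.54 (*Snap25*, limma adjusted p = 0.777) and 0.63 (*Stx3*, limma adjusted p = 0.549).

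Genes of a family can replace each other at the same step of fusion, so 4 pairs were set against each other within each library. The R-SNAREs drew nearer on Day 1 and parted again: *Vamp2* was at 0.543 and 0.671 of the *Vamp3* level on Day 0, at 1.19 and 0.919 on Day 1, at 0.870 and 0.717 on Day 2 and at 0.766 and 0.729 on Day 3. Replicate 1 of Day 1 was the only library in which *Vamp2* was the higher of the pair. Fitted on day, the log2 difference had a slope of 0.05 (exact permutation p = 0.667 2520 arrangements, two-sided). *Snap25* went from 0.110 and 0.495 of the *Snap23* level on Day 0 to 0 and 0.0564 on Day 3, a slope of -0.66 per day (exact permutation p = 0.0294, adjusted over the 4 pairs 0.0952). Without replicate 2 of Day 0 that slope was -0.39 (exact permutation p = 0.108), and with arrangements kept within replicate numbers the exact permutation p was 0.0556. *Rab3a* drew away from *Rab27a* by 0.86 per day (exact permutation p = 0.0476, adjusted 0.0952, and 0.0868 within replicate numbers), a slope in which *Rab27a* was at or under 3 fragments in 7 of the 8 libraries. *Stx3* stayed below *Stx4a* in all 8 libraries, at 0.0470 to 0.466 of its level, with a slope of 0.03 (exact permutation p = 0.917). None of the 4 slopes passed the adjusted threshold.

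**Figure D3:**
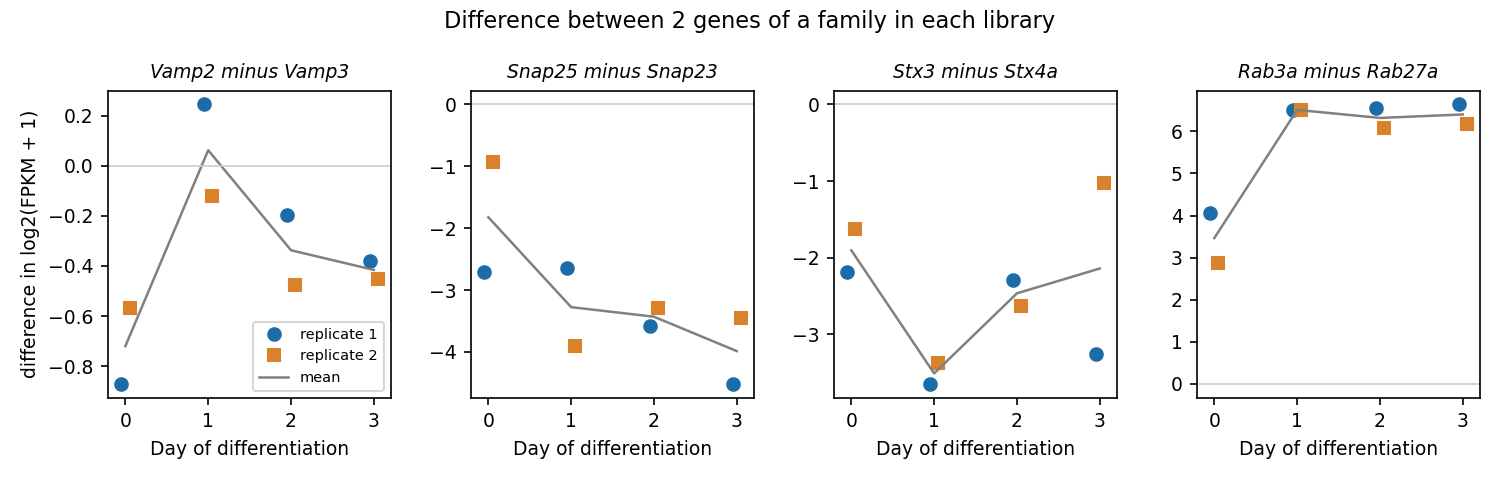
Difference in log2(FPKM + 1) between 2 genes of a family (y axis, its own scale in each panel) in each library on Day 0 to Day 3 (x axis), with a circle for replicate 1, a square for replicate 2 and a line through the mean. *Vamp2* minus *Vamp3* is above 0 only in replicate 1 of Day 1 (0.24), *Snap25* minus *Snap23* goes from -2.71 and -0.94 to -4.52 and -3.46, and *Rab3a* minus *Rab27a* is between 2.87 and 4.06 on Day 0 and at least 6.08 later.

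Over the 8 libraries *Vamp2* and *Rab3a* had the most similar course of any pair among the 8 genes (Pearson's r = 0.934 on log2(FPKM + 1)), followed by *Snap23* and *Rab3a* (0.855) and *Vamp2* and *Snap23* (0.828). *Snap25* ran opposite to *Stx4a* (-0.728) and *Rab3a* (-0.718). These 8 points share 4 days, so any genes that differ between days are correlated to some degree, and the values are descriptions only. Among all tested genes, the courses nearest to *Rab3a* were those of *Trim2* (0.993) and *Asb1* (0.989), those nearest to *Vamp2* were *Ankrd28* (0.987) and *Clcn6* (0.966), and those nearest to *Snap29* were *Tmem151a* (0.988) and *Hdhd2* (0.981). For *Vamp3* they were *Znrf2* (0.972) and *Fzd3* (0.971), and for *Snap25* they were *Ifrd2* (0.963) and *Glrx3* (0.948). The alikeness is one of shape and not of size: *Tmem151a* went from a mean of 1.38 FPKM on Day 0 to 65.2 FPKM on Day 3.

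Beside the 12% of all genes called higher and the 26.3% called lower between Day 0 and Day 3, the other SNARE genes held 5 higher calls and 1 lower. Of 6 further R-SNAREs, 4 were tested, and only *Ykt6* was called, from 59.8 ± 1.3 to 79.3 ± 1.4 FPKM (SD, n = 2 per day; log2 fold change 0.40, limma adjusted p = 0.0328). It was lost when any library of Day 0 or Day 3 was left out (limma adjusted p up to 0.136). Of 21 further Q-SNAREs, 19 were tested, 4 were called higher (21.1%) and 1 lower (5.26%), with a median log2 fold change of -0.083. Median ratio scaling gave 7 higher and 1 lower, quantile normalization 6 and 0, and leaving out either library of Day 0 or replicate 2 of Day 3 gave 2 and 0, while leaving out a library of Day 2 gave 4 and 2. *Stx2*, a Qa-SNARE of the plasma membrane, rose from 11.1 ± 3.2 to 35.4 ± 16.8 FPKM (SD, n = 2 per day; 1.53, limma adjusted p = 0.00711), and was at 64.5 FPKM on Day 2. The Golgi SNARE *Gosr1* rose (0.83, limma adjusted p = 0.00958) and the ER SNARE *Bnip1* fell (-1.11, 0.00999), and each of these 3 calls was lost when a single library was left out. They were *Stx2* without replicate 2 of Day 0, *Gosr1* without replicate 1 of Day 0 or replicate 2 of Day 3, and *Bnip1* without either library of Day 0 or replicate 2 of Day 3, and also with quantile normalization.

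Genes that act on SNAREs gave calls in both directions. Of 21 regulators, 17 were tested, 3 were called higher (17.6%, beside 12% of all genes) and 3 lower (17.6%, beside 26.3%), with a median of -0.26, beside -0.31 for all genes. Median ratio scaling and quantile normalization each gave 4 higher and 1 lower. The lower calls went to 0 without replicate 2 of Day 0 or replicate 1 of Day 3, to 1 without either other library of those days, and to 2 without any library of Day 1 or Day 2, while the higher calls numbered 3 each time. *Stxbp2*, of the SEC1/MUNC18 proteins that clasp syntaxins, rose from 1.45 and 0.603 FPKM on Day 0 to 14.9 and 14.7 FPKM on Day 3 (log2 fold change 3.0, limma adjusted p = 1.89e-04). *Stxbp6* (amisyn) rose from 1.74 ± 0.32 to 19.6 ± 10.6 FPKM (SD, n = 2 per day; 2.81, limma adjusted p = 0.00258), and the complexin *Cplx1* fell from 3.83 ± 2.47 to 0.238 ± 0.337 FPKM (-1.89, limma adjusted p = 0.00995). The *Stxbp2* and *Stxbp6* calls held in all 14 alternatives, and the *Cplx1* call was lost without replicate 2 of Day 0 and without replicate 1 of Day 3. A second complexin, *Cplx2*, fell from 4.94 ± 0.68 to 2.40 ± 0.02 FPKM (SD, n = 2 per day; -0.80, limma adjusted p = 0.0458), a call that was lost in 12 of the 14 alternatives (limma adjusted p up to 0.38).

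Around *Rab3a* and *Rab27a*, relatives, effectors and regulators gave calls in both directions. Of 22 relatives, regulators and effectors, 14 were tested, and 3 were called higher and 3 lower from Day 0 to Day 3 (21.4% each, beside 12% and 26.3% of all genes), with a median log2 fold change of 0.19. Median ratio scaling gave 3 higher and 1 lower and quantile normalization 4 and 1, and the counts were 2 and 1 without replicate 1 of Day 0. *Rims2*, a scaffold that binds RAB3, was at 2.40 and 4.44 FPKM on Day 0, 4.11 and 8.34 FPKM on Day 1, 16.0 and 66.6 FPKM on Day 2 and 67.8 and 103.2 FPKM on Day 3. Its change was 0.68 from Day 0 to Day 1 (limma adjusted p = 0.528) and 4.30 from Day 0 to Day 3 (limma adjusted p = 0.00102), while *Rab3a* was called on Day 1, and this difference in timing was not tested. *Sytl2*, an effector of RAB27, was at 5.26 and 8.47 FPKM on Day 0 and at 21.9 and 38.4 FPKM on Day 3 (1.96, limma adjusted p = 0.00651), where *Rab27a* was listed at 0. The *Sytl2* call was lost without replicate 1 of Day 0 and without replicate 2 of Day 3 (limma adjusted p up to 0.0585). *Rab27b*, named after its values were seen, had low signal in all 8 libraries. It was at 1.18 and 0.455 FPKM on Day 3 (0.10 from Day 0, limma adjusted p = 0.868). *Myo5a*, a myosin that carries Rab-bound organelles, fell from 61.7 ± 12.6 to 31.7 ± 0.3 FPKM (SD, n = 2 per day; -0.93, limma adjusted p = 0.00512). *Rab3ip* also fell (-0.88, limma adjusted p = 0.0235), a call that was lost in 6 of the 14 alternatives. Of the relatives of *Rab3a*, *Rab3b* was called higher on Day 3 than on Day 0 (1.73, limma adjusted p = 0.00234). *Rab3d* was called higher on Day 1 (1.53, limma adjusted p = 0.0391) and not on Day 3 (0.67, 0.209). Both were named after their values were seen.

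Of 48 other Rab GTPases, 43 were tested, and 15 were called higher (34.9%, beside 12% of all genes) and 4 lower (9.3%, beside 26.3%) from Day 0 to Day 3, with a median log2 fold change of 0.28 beside -0.31 for all genes. Without replicate 1 of Day 0 the calls were 6 higher and 1 lower, without replicate 2 of Day 0 they were 8 and 2, without replicate 1 of Day 3 they were 9 and 5, and without replicate 2 of Day 3 they were 10 and 2. Leaving out a library of Day 1 gave 15 and 2, median ratio scaling 19 and 2, quantile normalization 15 and 1, and no filter 14 and 2. *Rab33a* was the nearest in size to *Rab3a* and also rose by Day 1, from 27.5 and 16.8 FPKM on Day 0 to 102.2 and 166.4 FPKM on Day 1 (2.55, limma adjusted p = 0.00112), and was at 98.0 and 92.3 FPKM on Day 3 (2.10, limma adjusted p = 6.57e-04). *Rab38*, of lysosome-related organelles, was at 0.258 ± 0.365 FPKM on Day 0 and 3.07 ± 0.59 FPKM on Day 3 (SD, n = 2 per day; 1.72, limma adjusted p = 0.0116), and its call was lost with a pseudocount of 0.1, without replicate 1 of Day 0 and without replicate 1 of Day 3. *Rab8b* fell from 31.7 ± 0.3 to 4.46 ± 1.33 FPKM (SD, n = 2 per day; -2.60, limma adjusted p = 2.55e-04), and its relative *Rab8a*, named after its values were seen, changed by -0.05 (limma adjusted p = 0.806). *Rab15* fell as well (-1.54, limma adjusted p = 0.0118) and was lost with quantile normalization, without replicate 1 of Day 0 and without replicate 1 of Day 3. Of the 9 exocyst subunits, which tether vesicles ahead of SNARE pairing, all were tested and only *Exoc6b* was called (0.96, limma adjusted p = 0.00544), from 13.9 ± 1.3 to 27.9 ± 0.6 FPKM (SD, n = 2 per day).

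**Figure D4:**
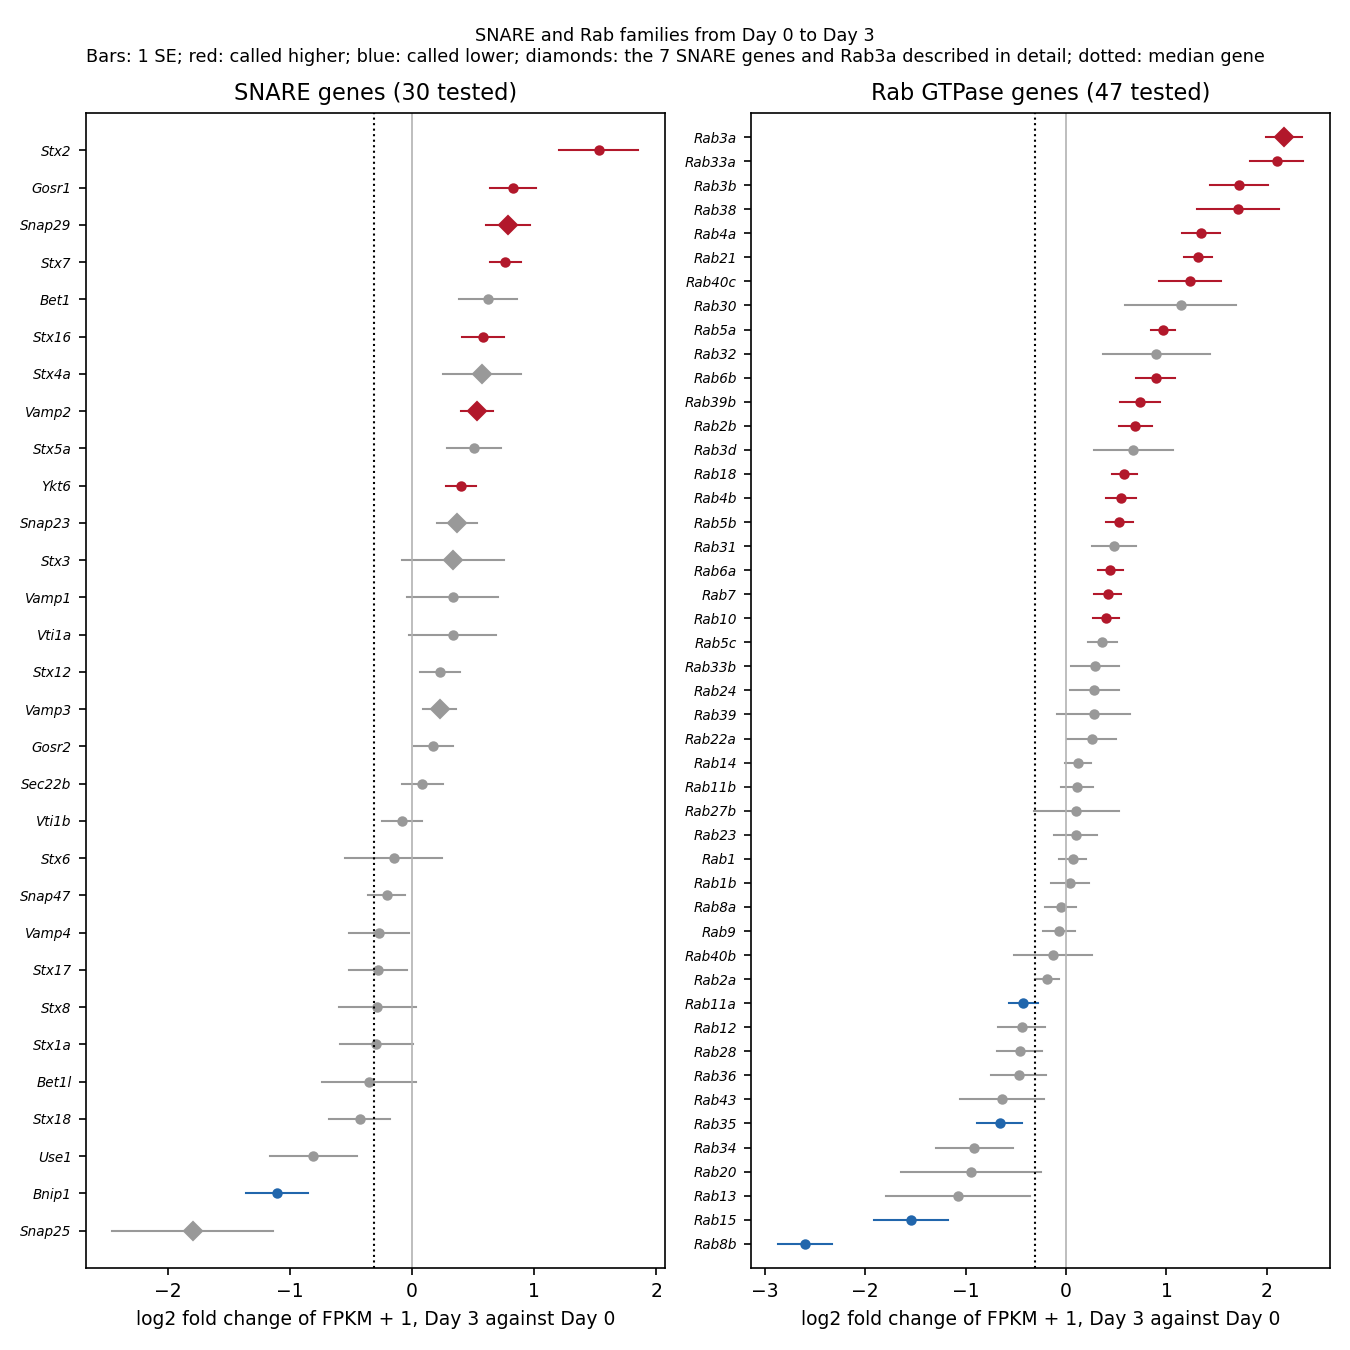
Log2 fold change of FPKM + 1 from Day 0 to Day 3 (x axis) of 30 tested SNARE genes (left) and 47 tested Rab GTPase genes (right), with bars of 1 SE, red for genes called higher, blue for genes called lower and diamonds for the 8 genes described in detail. *Rab3a* (2.17) is the highest of the Rab genes and *Rab8b* (-2.60) the lowest, and among the SNARE genes *Stx2* (1.53) is the highest and *Snap25* (-1.80, not called) the lowest.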

How the data were processed

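RNA of the 8 libraries was prepared with the TruSeq Stranded mRNA kit from 80 ng of total RNA and sequenced on a MiSeq instrument (paired ends of 75 nt). The deposited values are FPKM per gene, 1 column per library, which the authors made in OmicSoft ArrayStudio, with mm10 named in the submitters' processing notes. The aligner, the gene model and whether strand was counted are not given in the sources used here. The count test that the study's methods name does not apply to FPKM, so limma was used on log2(FPKM + 1), a scale that understates changes of low genes. All 8 columns matched a sample, and 0 did not.

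Genes at 1 FPKM or more in at least 2 libraries were tested (12208), with limma 3.58.1 in R 4.3.3 (lmFit and eBayes with a trend), the day as a factor over all 8 libraries, and Benjamini-Hochberg adjustment. Python 3.11.15 (scipy 1.17.1, pandas 2.3.3, numpy 2.4.6, matplotlib 3.10.9) served for the rest. The slopes of paired genes were tested by enumerating 2520 arrangements of the days. In simulated data for Day 3 against Day 0, 200 of 12208 genes were changed. Of these, 15 of 94 genes changed by 1 on the log2 scale were recovered (16%) and 71 of 106 changed by 2 (67%), with 3 false calls. Far more genes (4667) were called in the real data, so these recovered shares do not carry over to them. The limma p-values rest on the spread between the 2 libraries of each day, pooled over the 4 days and moderated across genes. The slope p-values rest on the arrangements of the 8 libraries over the days.

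Fragments were recovered where a gene's FPKM values were whole multiples of 1 step, within 0.01 of a fragment. This held for 6 of the 9 genes with a row, and not for *Stx3*, *Snap23* and *Rab3a*. Intervals (95%, exact) and the floor of 3 fragments cover counting error only. Coordinates, overlaps and shared stretches of 31 nt came from GENCODE M21 (GRCm38).

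The replicate numbers of the labels were checked as pairs. Deviations of same-numbered libraries from their day's mean correlated across genes in each of 6 pairs of days (0.164 to 0.285), so a fit with the replicate number as a block was made as an alternative, beside a pseudocount of 0.1, no filter, median ratio scaling, quantile normalization, a fit of only the days compared, and each library left out.

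The members, the lists of related genes and the tests were chosen with earlier results of these data known. Named genes are the members, up to 2 rises and 2 falls per list that were called without overlap of replicates between Day 0 and Day 3, and the 2 genes nearest to each member by Pearson's r. No comparison columns of the authors were used. Results that need a withheld item are not reported here, and such genes were taken out of the lists.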

Additional observations from a re-analysis of the deposited data

How the results depend on the processing

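With 1 library left out, the genes called numbered 2769 to 4548 from Day 0 to Day 3 (4667 with all), 583 to 1585 from Day 0 to Day 1 (1538), 11 to 445 from Day 1 to Day 2 (475) and 0 to 223 from Day 2 to Day 3 (36), and those among the 8 tested SNARE and Rab genes numbered 2 to 3 and 1 to 2 in the first 2 of these comparisons. The lowest count from Day 1 to Day 2 was without replicate 2 of Day 2 (1584 genes at an unadjusted p under 0.05), and the highest from Day 2 to Day 3 was without replicate 1 of Day 3. Left-out slopes ran from -0.051 to 0.092 for *Vamp2* minus *Vamp3* (reversed without replicate 1 of Day 0), -0.82 to -0.39 for *Snap25* minus *Snap23*, -0.30 to 0.25 for *Stx3* minus *Stx4a* (reversed without either library of Day 1, -0.03 and -0.02, and without replicate 2 of Day 3, -0.30) and 0.51 to 1.05 for *Rab3a* minus *Rab27a*. The *Stx3* change from Day 0 to Day 3 ran from -0.24 (without replicate 2 of Day 3) to 0.91, and the *Snap25* change from Day 2 to Day 3 from -1.19 to 0.12 (without replicate 1 of Day 3).

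Median ratio scaling raised the calls among the 8 genes from 3 to 5 (Day 0 to Day 3), and a fit of only the days compared lowered them from 2 to 1 (Day 0 to Day 1). From Day 1 to Day 2, limma called 247 genes with no filter, 803 with the replicate block and 0 with only the days compared (2364 at an unadjusted p under 0.05). From Day 2 to Day 3 it called 8 genes with a pseudocount of 0.1, 163 with the replicate block, 0 with no filter (1887 at an unadjusted p under 0.05) and 0 with only the days compared (1430). With the replicate block the slope of *Snap25* minus *Snap23* stayed at -0.66 (exact permutation p = 0.0556) and that of *Rab3a* minus *Rab27a* at 0.86 (exact permutation p = 0.0868), and a pseudocount of 0.1 gave 1.41 for the latter (exact permutation p = 0.0532). The cause of these differences was not tested, and that includes the fewer residual degrees of freedom of a fit on fewer libraries. Beside *Snap25* from Day 0 to Day 3, these slopes and the astrocyte markers *Gfap* and *Aqp4*, the block changed no call of the 8 genes or of the marker lists from Day 0 to Day 3, nor of the 8 genes in the other steps. Depth limits *Rab27a* and *Snap25*, which rest on few fragments.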
